A study of Homo sapiens with 2 samples.

Results

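The miR-221 and miR-222 pair comprised the 2 loci of the deposited count table whose names carry either microRNA (miRNA), of 947 loci in all and 450 with a miRNA name. The loci were found by their names, and both are listed as 5p (hsa-miR-221-5p and hsa-miR-222-5p). The cells were MCF10A, a non-tumorigenic human breast epithelial line of basal type. The groups were MCF10A cells given 2 µM withaferin A, a steroidal lactone of the plant Withania somnifera, for 24 h (3 libraries) and untreated MCF10A cells (3 libraries). Each group is a sample record of its own whose labels name 3 replicate libraries. Nothing in the labels says that these came from separate cultures, so p-values measure only the spread between libraries, which may be technical.

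miRNAs are short RNAs that guide silencing proteins to messenger RNAs, mostly through bases 2 to 8, the seed. miR-221 and miR-222 are cut from one X-linked transcript, and their 3p arms carry the same seed. They are known to repress CDKN1B, which encodes the cell cycle inhibitor p27, its relative CDKN1C (p57) and the receptor KIT. They are also known to be high in basal-type and low in luminal, oestrogen receptor-positive breast cells.

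The mature sequences are shown first because the seed is what joins the members, and because the locus names state the 5p arm while the shared seed lies on the 3p arm. They are RefSeq's on build GRCh38.p14, given 5′ to 3′ with the seed in capitals.
miR-221-3p: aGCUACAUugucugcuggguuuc
miR-222-3p: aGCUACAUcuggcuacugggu
miR-222-5p: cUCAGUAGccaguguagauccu
The 3p arms were identical at the first 8 bases, and at 11 of the 21 positions that can be set side by side without gaps. Among 2370 mature human miRNAs in the RefSeq table, only these 2 held the seed GCUACAU, and no other held the seed of miR-222-5p.

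The hairpins are shown to place the arms, with capitals marking the 3p arm in MIR221 and both arms, 5p first, in MIR222. The 5p arm that names the miR-221-5p locus is not marked. MIR221 lies at chrX:45746157-45746266 and MIR222 at chrX:45747015-45747124, both on the minus strand and 748 bases apart. Both RefSeq hairpins were matched to the loci by name. In GENCODE 29 both lie in the intron of the 2-exon host transcript MIR222HG-201 and outside MIR222HG-202.
MIR221: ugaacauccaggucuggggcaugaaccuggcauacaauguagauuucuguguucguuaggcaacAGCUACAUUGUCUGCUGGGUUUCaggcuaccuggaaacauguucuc
MIR222: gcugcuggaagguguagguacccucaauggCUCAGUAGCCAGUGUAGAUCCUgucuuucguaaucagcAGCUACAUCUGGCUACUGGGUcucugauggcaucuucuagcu
The table had 1 locus for each hairpin and none for another arm, so counts of the 5p and 3p arms cannot be told apart if a locus stands for its whole hairpin. No other locus had the untreated counts of either member, so no gene copy with the same counts stands behind these values.

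The promoter of the host gene is shown because both members are made from its transcript. RefSeq (GRCh38.p14) places it at chrX:45770218-45770517 on the minus strand, 250 bases before to 50 after the start of MIR222HG, and motif matches are in capitals.
MIR222HG promoter: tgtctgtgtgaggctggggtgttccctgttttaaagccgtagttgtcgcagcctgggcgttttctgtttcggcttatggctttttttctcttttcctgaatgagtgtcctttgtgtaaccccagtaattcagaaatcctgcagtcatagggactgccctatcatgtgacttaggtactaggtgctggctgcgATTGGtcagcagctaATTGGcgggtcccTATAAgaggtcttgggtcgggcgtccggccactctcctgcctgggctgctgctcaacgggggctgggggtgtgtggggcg
Searched on both strands, it held TATAA at 1 place (20.4% of 35116 promoters hold it) and CCAAT at 2 places, both on the opposite strand (34.6%). The AP-1 motif TGANTCA (7.71% of promoters) and the NF-kB consensus (5.91%) had 0 matches in this window. No searched motifs overlapped each other here.

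A match to the shared seed is the heptamer ATGTAGC in a target's 3′ UTR. The best known target, CDKN1B on chromosome 12, held it at 2 places in the GENCODE 29 transcript ENST00000228872.8, at bases 201 to 207 and 274 to 280 of a 3′ UTR of 1344 bases. The match is in capitals, in DNA letters.
CDKN1B site 1: ctctaaaagcgttggATGTAGCatta
CDKN1B site 2: tagtttttaccttttATGTAGCacat
Of 2480 genes whose longest 3′ UTR was 0.8 to 1.2 times as long, 6.29% held 1 or more matches and 0.242% held 2 or more. By the same search KIT held 2 matches, and 0.732% of 3′ UTRs of like length held 2 or more. CDKN1C, the cell death gene BBC3 and the protease inhibitor TIMP3 held 1 each, and of 3′ UTRs as long as theirs 3.0%, 4.19% and 18.6% held 1 or more. These are matches of letters, and no messenger RNA was measured here.

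The libraries differed in depth before any miRNA was compared. Withaferin A libraries held 340 to 430 counts and untreated libraries 1855838 to 2615684. The labels' protocols name 2 library kits and list the libraries in an order that gives QIAseq to the untreated and NEBNext to the withaferin A libraries, so kit, depth and treatment cannot be told apart. In a withaferin A library 1 count was 2326 to 2941 CPM (counts scaled to 1 common library total). Over the 3 withaferin A libraries together, 3 of 1188 counts are 0.253% of counts (2525 CPM). That level is called the floor below, and for a locus with 0 counts the exact 95% upper limit is higher, at 0.310%. Of the miRNAs taken to mark the labelled epithelial cells, miR-205-5p had 395 counts over the withaferin A libraries, while miR-200c-5p and miR-141-5p had 0 counts there. Their untreated means were 6.82%, 0.615% and 0.0142% of counts. At these shares miR-200c-5p would give 7.31 counts over the withaferin A libraries and miR-141-5p 0.169. miR-141-5p thus lay below the floor, and a fall of it was not detectable.

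Both members had a lower share of counts after withaferin A, and both were abundant in untreated cells. miR-221-5p had 1, 0 and 1 counts in the withaferin A libraries, against 28689, 35506 and 14572 counts in the untreated libraries. As shares these were 0.239%, 0% and 0.294% of withaferin A counts, against 1.12%, 1.36% and 0.785% of untreated counts. The groups did not overlap, and untreated replicate 2 was the highest library and untreated replicate 3 the lowest of its group.

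miR-222-5p had 0 counts in each of the 3 withaferin A libraries, against 13851, 21560 and 8773 counts in the untreated libraries. The untreated shares were 0.539%, 0.824% and 0.473%. Untreated replicate 2 was again the highest and replicate 3 the lowest. Summed, the pair held 0.178% ± 0.156 of withaferin A counts and 1.70% ± 0.463 of untreated counts (SD, n = 3 each).

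**Figure D1:**
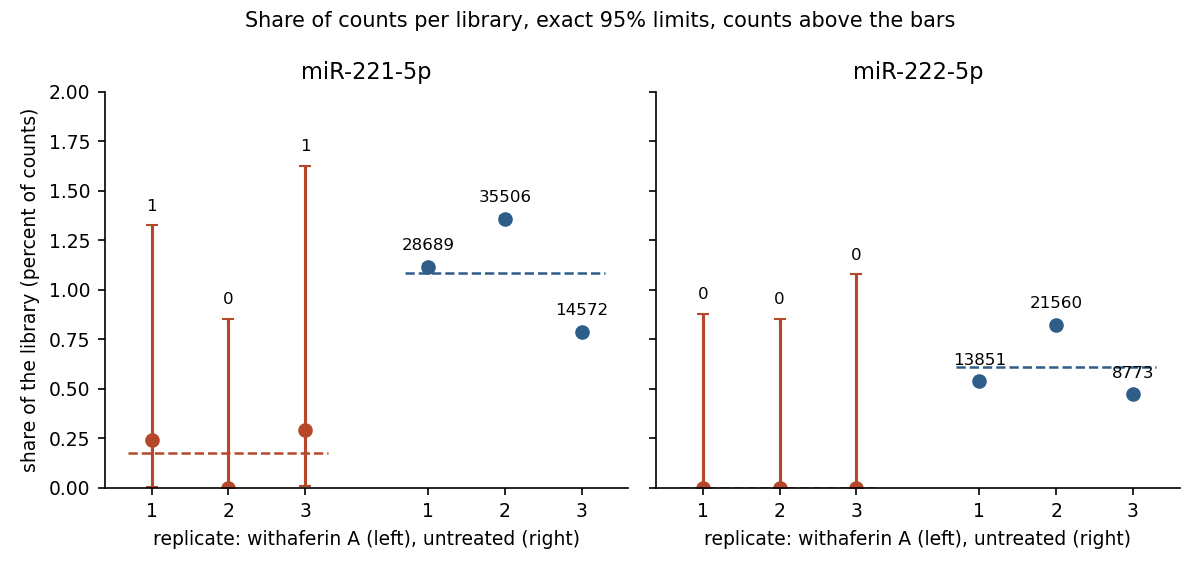
Share of each library's counts (percent, linear axis) held by miR-221-5p and miR-222-5p in the 3 withaferin A libraries (left of each panel) and the 3 untreated libraries (right), with exact 95% limits as bars, counts printed above and group means dashed. The withaferin A points lie at 0.294% or below and all untreated points at 0.473% or above, but the withaferin A limits reach up to 1.63%.

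The limits on single withaferin A libraries were wide. For miR-221-5p the exact (Clopper-Pearson) 95% upper limits were 1.33%, 0.854% and 1.63%, so the untreated mean of 1.09% ± 0.287 (SD, n = 3) lay inside them in replicates 1 and 3 and above them in replicate 2. For miR-222-5p, 3 counts in a single withaferin A library would be 0.698% to 0.882%, above the untreated mean of 0.612% ± 0.187. A difference in miR-222-5p was thus not detectable in any withaferin A library alone. These limits cover counting error only, since PCR reads are not independent molecules.

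With the 3 withaferin A libraries summed, the limits were narrower. They do not allow for reads that may stand in the totals more than once. Limits and bounds on folds, here and below, also take the mean untreated share as fixed, without its spread between libraries. let-7a-5p, at 2 loci with near-equal counts, held on average 19.5% and 18.7% of withaferin A counts, and 3.34% at each in untreated libraries. miR-221-5p had 2 of 1188 counts, where the untreated share would give 12.9 (9.33 to 16.1 over the untreated libraries). Its share was 6.45-fold lower, with exact 95% limits of 1.79 to 53.3. miR-222-5p had 0 of 1188 counts, which allows a share of up to 0.253% by the floor of 3 counts and 0.310% by the exact limit, where the untreated share would give 7.27 (5.62 to 9.79). Its share was at least 2.42-fold lower with the floor of 3 counts over the group, and at least 1.97-fold lower with the exact 95% limit. Bounds given for other loci use the floor. The pair together had 2 counts where 20.2 would be given by the untreated share, a 10.1-fold lower share (exact 95% limits 2.80 to 83.3). With 1 value per library, the exact two-sided permutation test gave p = 0.1 for miR-221-5p, for miR-222-5p and for the pair, the smallest p that 3 against 3 allows. The differences were −0.91, −0.61 and −1.52 percentage points, with 3 of 3 withaferin A libraries below every untreated library in each case. Such a lack of overlap, with withaferin A below, held for 91.1% of the 303 loci tested in edgeR, so it does not set the pair apart.

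**Figure D2:**
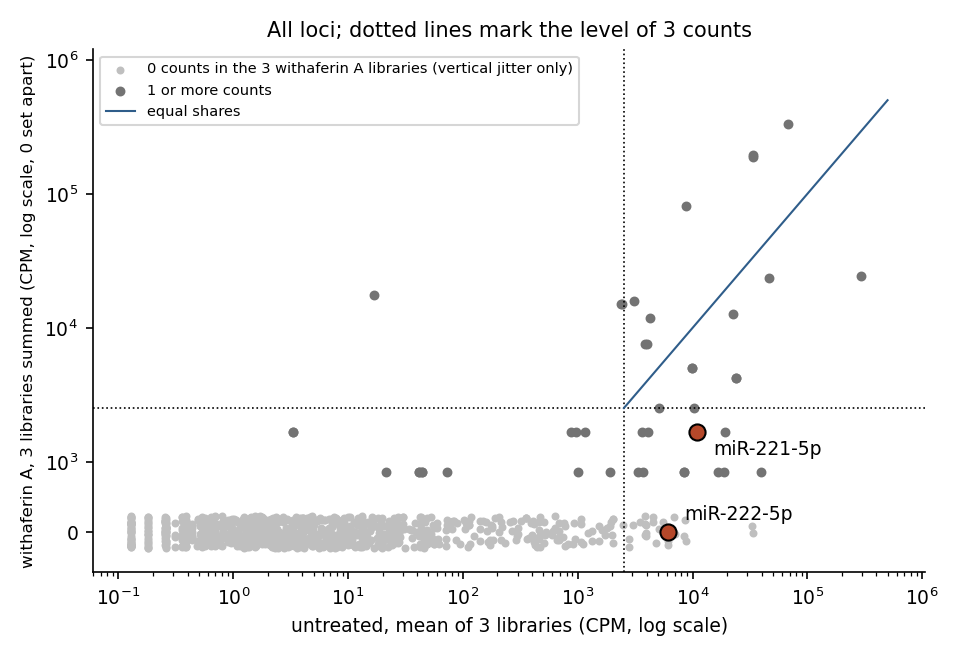
CPM of every locus, as the mean of the 3 untreated libraries (x axis, log scale) and as the 3 withaferin A libraries summed (y axis, log scale, loci with 0 counts drawn as a band at 0). miR-221-5p lies below the line of equal shares with 2 counts, and miR-222-5p lies in the band of 0 counts, right of the dotted line at 2525 CPM that 3 of 1188 counts would give.

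edgeR's quasi-likelihood test used trimmed mean of M values (TMM) scaling and Benjamini-Hochberg adjustment over 303 loci, and it called both members lower. Both passed the count filter through the untreated libraries, where they are high. For miR-222-5p, with 0 counts after withaferin A, a fall was the only direction possible. The change of miR-221-5p was −3.95 ± 0.75 on the log2 scale (SE, edgeR adjusted p = 0.0127), with every withaferin A library lower. For miR-222-5p edgeR's adjusted p was 0.0192. Its fitted log2 fold change of −15.82 rests on 0 counts and is no bound, and the bounds are the folds above. Of all loci tested 16.8% were called lower, and of the 52 loci above the floor in untreated cells 80.8% (42) were called lower, so a call was the usual outcome at the members' level. With library totals in place of TMM, where 3.63% of loci were called lower, neither member passed (edgeR adjusted p = 0.0825 for both, log2 fold change of miR-221-5p −2.68). Without withaferin A replicate 3, whose TMM factor was 3.32 against 0.767 and 1.21 in the other 2, neither passed (−3.72, edgeR adjusted p = 0.0788 for miR-221-5p and 0.091 for miR-222-5p).

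**Figure D3:**
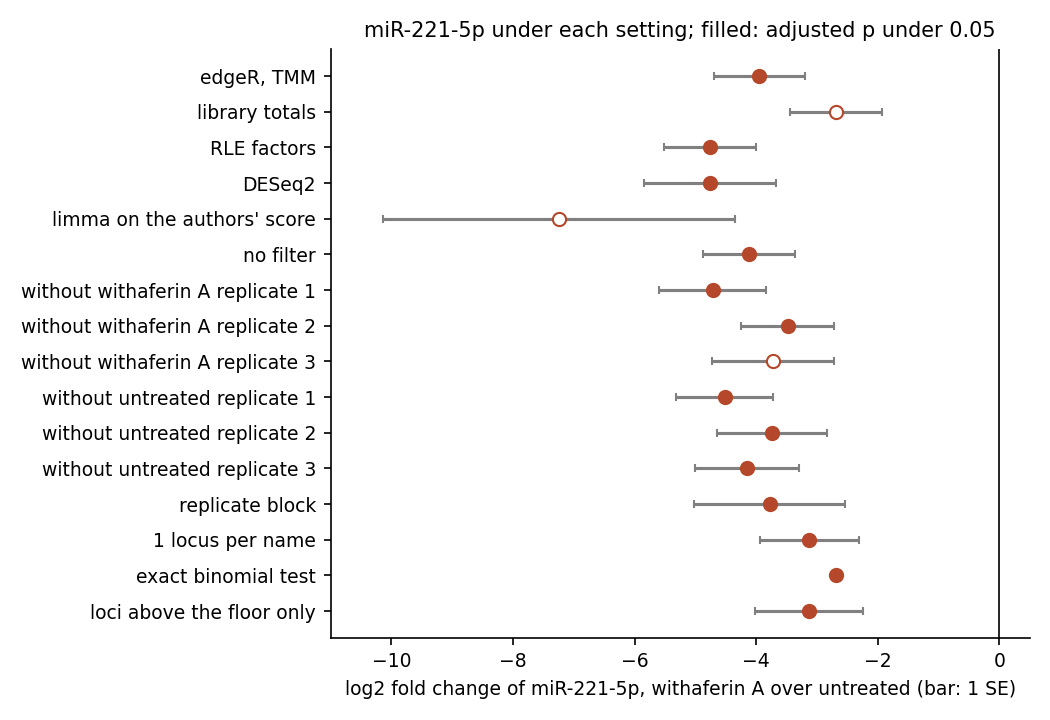
Log2 fold change of miR-221-5p, withaferin A over untreated (x axis, linear, bars 1 SE), under each setting (y axis), with filled points where the adjusted p is under 0.05. All points lie below 0, from −7.25 to −2.68, and the open points are library totals, the authors' score and the fit without withaferin A replicate 3.

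The members' fall was also read against the loci that are not among the most abundant. The 5 leading loci of each group made 8 loci in all, among them miR-205-5p, let-7a-5p and miR-21-5p. They took 84.2% ± 4.87 of withaferin A counts and 55.7% ± 0.568 of untreated counts (SD, n = 3 each). Among the counts left, miR-221-5p held 2 of 183 in withaferin A libraries (1.09%), against a mean of 2.45% ± 0.618 in untreated libraries. Single withaferin A libraries reached 2.04%, above the lowest untreated library at 1.79%, so the groups overlapped. The ratio was 2.24-fold lower, with exact 95% limits of 0.629 to 18.4 that include no difference (exact two-sided permutation p = 0.2). miR-222-5p held 0 of 183, which allows up to 1.64% by 3 counts and 2.00% by the exact limit, both more than its untreated share of 1.38% ± 0.402. On this denominator a fall of miR-222-5p was not detectable at this depth. For the pair the ratio was 3.50-fold lower (exact 95% limits 0.982 to 28.8).

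The authors' normalized score, a multiple of the count, gave the same order of groups. In limma on that score 629 of 660 loci were called lower and 2 higher, so this order does not set the pair apart. In the authors' deposited table miR-221-5p had scores of 698, 0 and 780 in the withaferin A libraries, against 12940, 16415 and 9018 in the untreated libraries. In the authors' deposited table miR-222-5p was listed at 0 in all 3 withaferin A libraries, against 6247, 9968 and 5429 in the untreated libraries. Each nonzero withaferin A score is thus the worth of 1 count.

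Within untreated cells miR-221-5p was the more abundant member. It ranked 15, 15 and 25 among 947 loci in untreated replicates 1 to 3, and miR-222-5p ranked 29, 22 and 34. The ratio of miR-221-5p to miR-222-5p counts, which no library scaling can alter, was 2.07, 1.65 and 1.66 in untreated replicates 1 to 3 (mean 1.79 ± 0.241, SD). The exact 95% limits were 2.03 to 2.11 in replicate 1. Those of replicate 2 (1.62 to 1.68) and replicate 3 (1.62 to 1.71) were lower and overlapped each other. These limits cover counting error only and take reads as independent molecules. In withaferin A libraries the 2 counts of the pair were both miR-221-5p. That is 100% of the pair with an exact lower 95% limit of 15.8%, which includes the untreated mean of 64.0% ± 2.96, so a change in the ratio was not detectable.

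Both members varied more than most abundant loci among the untreated libraries. The coefficient of variation of the share was 26.4% for miR-221-5p and 30.5% for miR-222-5p, against a median of 15.5% over the 75 loci of at least 1000 CPM. Of those 75 loci, 20 varied more than miR-221-5p and 13 more than miR-222-5p. A share that was highest in untreated replicate 2 and lowest in replicate 3 was found at 32 of the 75 loci (42.7%), the members included, so that order was common.

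The loci most like each member were found by the mean absolute difference in log2 share over the 6 libraries, with 0.5 added to each count. The withaferin A libraries entered this rule, so like counts and like calls there follow from the choice of loci. For miR-221-5p the nearest was let-7g-5p (0.36), a growth-repressing let-7 member with 1, 0 and 1 counts after withaferin A, the same as miR-221-5p, and 1.92%, 2.82% and 0.991% of untreated counts. Next came the 2 loci of miR-103a (0.43 each), which share their counts, and the 2 loci of miR-92a (0.45 each), which also share theirs. miR-92a had 1, 0 and 5 counts after withaferin A and an untreated share of 0.999% ± 0.0568 (SD, n = 3), close to that of miR-221-5p. Its log2 fold change was −2.30 (edgeR adjusted p = 0.0263). With library totals none of these 5 loci passed (edgeR adjusted p = 0.0551 to 0.741).

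For miR-222-5p the nearest locus was miR-200c-5p (0.09), of the epithelial miR-200 family, with 0 counts after withaferin A and 0.661%, 0.729% and 0.456% of untreated counts. It was followed by miR-26b-5p (0.16), miR-151b (0.18), miR-17-5p of the miR-17/92 cluster (0.23) and miR-181a-5p (0.28). All 5 had 0 counts in the 3 withaferin A libraries, and edgeR called each lower (adjusted p = 0.0124 to 0.0234). Both follow from the likeness rule and are no separate result. With library totals none of the 5 passed (edgeR adjusted p = 0.0551 to 0.127). Their untreated means ran from 0.451% to 0.691%.

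**Figure D4:**
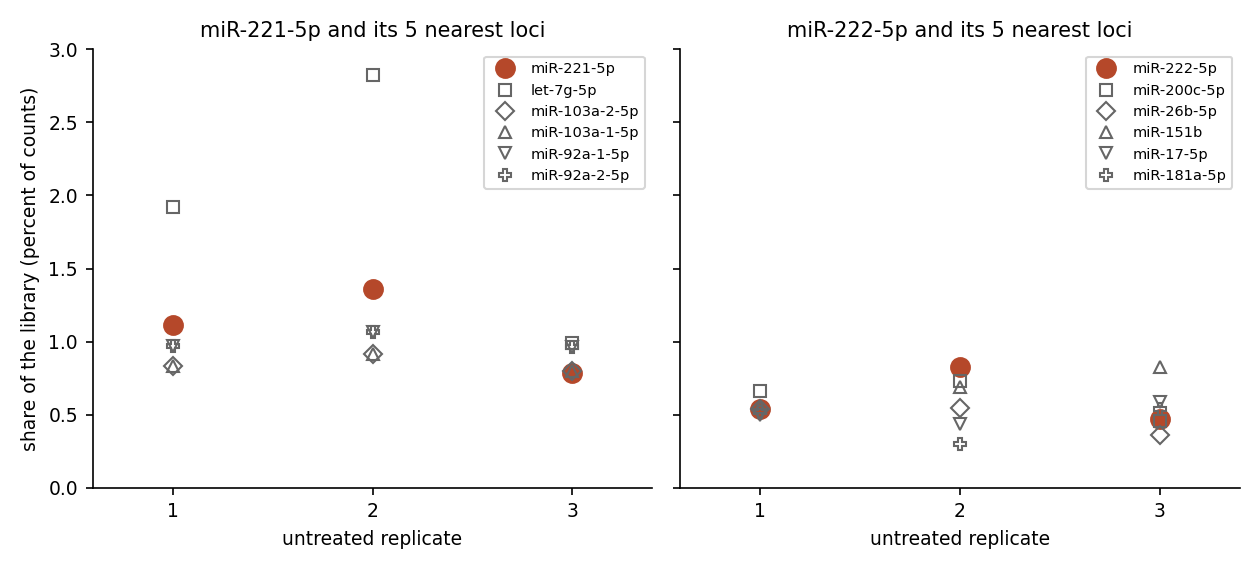
Share of counts (percent, linear axis) in untreated replicates 1 to 3 of miR-221-5p and miR-222-5p (filled circles) and of the 5 loci nearest to each (open symbols). miR-221-5p lies between 0.785% and 1.36% and miR-222-5p between 0.473% and 0.824%, both highest in replicate 2, and let-7g-5p reaches 2.82% there.

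Other miRNAs reported to repress CDKN1B also had few counts after withaferin A. In that list, miR-24, miR-148a, miR-181a and miR-196a, all 7 loci tested were called lower in edgeR. All 7 lay above the floor, where 80.8% of loci were called lower. The list's median fitted log2 fold change was −15.36 against −8.94 over all 303 loci, both resting on 0 counts. With loci above the floor set at their bound where they had 0 counts, the median log2 share ratio was −0.84 over 7 loci against −1.01 over all 52. A bound depends only on the untreated share, and 6 of the 7 loci and 24 of all 52 were at bounds. These medians thus do not compare the size of falls. The summed share was 0.253% ± 0.235 of withaferin A counts and 8.92% ± 0.971 of untreated counts (SD, n = 3 each). Near-equal counts at miR-148a-3p and miR-148a-5p, and equal counts at miR-24-1-5p and miR-24-2-5p, mean that reads may stand in this sum more than once. The 7 loci called include these loci and both loci of miR-181a, so they are not 7 separate miRNAs. miR-24-3p had 0, 2 and 1 counts after withaferin A, against 27037, 26023 and 19487 in untreated libraries (−3.28 ± 0.61, edgeR adjusted p = 0.0124). miR-148a-3p had 0 counts after withaferin A and 3.36% ± 0.454 of untreated counts, at least 13.3-fold lower. miR-181a-5p, at 2 loci with near-equal counts, was at least 1.79-fold lower at each, and the loci named miR-24-1-5p and miR-24-2-5p, with equal counts, at least 1.55-fold. miR-196a-5p, at 2 loci of 7.50 and 8.99 CPM in untreated cells, was too low to be tested. With library totals the miR-148a loci alone of this list passed (edgeR adjusted p = 0.00249 each, against 0.0825 to 0.127 at the other 5).

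A second list held growth-promoting miRNAs that repress CDKN1A, the gene of the related inhibitor p21. Of its 5 loci tested 3 were called lower in edgeR, the 3 above the floor, where 80.8% of all loci were called lower. Its median fitted log2 fold change was −13.08, and with the 3 loci above the floor at their bound or ratio the median was −1.75, against −1.01 over all 52. Of these 3 loci 2 were at bounds set by their untreated share, so here too the medians do not compare the size of falls. miR-20a-5p had 0 counts after withaferin A and 0.848% ± 0.170 of untreated counts, at least 3.36-fold lower. miR-17-5p, also at 0 counts, was at least 2.01-fold lower, and miR-93-5p had 1 count (−3.22, edgeR adjusted p = 0.0457). With library totals miR-20a-5p passed (edgeR adjusted p = 0.0428) and miR-17-5p (0.0665) and miR-93-5p (0.384) did not. Their untreated shares of 0.334% to 0.848% bracketed that of miR-222-5p.

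The basal-type breast miRNAs, to which the pair belongs by its known expression, had negative fitted changes with TMM at every tested locus but miR-205-5p. miR-203a-5p (fitted −10.67) and miR-146a-5p (fitted −11.24) had 0 counts after withaferin A. Both lay below the floor, so a fall there was not detectable. miR-155-5p, at 0.692 CPM in untreated cells, was too low to be tested. Of 6 loci tested 1 was called lower in edgeR, near the 16.8% called lower over all loci. Of the 4 above the floor 1 was called lower, against 80.8% of all loci at that level. The median fitted log2 fold change over the 6 was −3.58. Over the 4 loci above the floor the median log2 share ratio was 0.95, against −1.01 over all 52, of which 24 were at bounds. The 2 middle values were the 2 loci of miR-125b-5p, which had the same counts after withaferin A, 9 at each. edgeR fitted these loci at −0.36 and −0.33 with TMM. The median thus rests on 1 miRNA and does not compare the size of changes. The list's fitted median and its share ratio thus differ in sign. The list's summed share was 33.8% ± 3.73 of withaferin A counts and 11.2% ± 0.638 of untreated counts (SD, n = 3 each). miR-205-5p, the leading miRNA of stratified epithelia, had a share of 32.9% ± 4.20 after withaferin A and 6.82% ± 0.588 in untreated libraries. Its log2 fold change of 1.44 did not pass with TMM (edgeR adjusted p = 0.161) and passed with library totals (adjusted p = 0.000344). miR-100-5p was the 1 locus that fell (−6.80 ± 0.77, edgeR adjusted p = 0.00188), with 1 count after withaferin A, and it passed with library totals too (adjusted p = 0.001). miR-125b-5p had 1, 2 and 6 counts at each of its 2 loci after withaferin A and did not pass (edgeR adjusted p = 0.792 at each).

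Of the luminal breast miRNAs, where the pair is known to be low, 4 of 8 loci were tested. edgeR called 1 of them lower, against 16.8% of all loci and 80.8% of those above the floor. It was miR-200c-5p, at least 2.44-fold lower and the only 1 above the floor, and with library totals it did not pass (edgeR adjusted p = 0.0739). The list's median fitted log2 fold change was −11.64, and the share ratio of miR-200c-5p at its bound was −1.28 on the log2 scale. The list held 0 counts after withaferin A and 0.570% to 0.794% of untreated counts (mean 0.704%). Most of this was miR-200c-5p, with a mean of 0.615%, which is also taken above to mark the labelled cells.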

How the data were processed

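Small RNA was sequenced from 3 withaferin A and 3 untreated MCF10A libraries. Libraries were assigned to groups by the library names given in each sample record, which match the table columns. The authors' deposited count table holds whole-number counts per locus, not normalized. The authors' second deposited table holds a normalized score, a rounded multiple of the count, at 660 of the 947 loci. The tools were cutadapt, Trim Galore and edgeR and the build was GRCh38.p7, per the submitters' processing notes. The aligner, the counting rule, the use of strand and of molecular identifiers are not given in the sources used here.

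The test was edgeR's quasi-likelihood F test (version 4.0.16, R 4.3.3) with TMM, a filterByExpr minimum count of 10 and a call at an adjusted p under 0.05. The SE is the absolute log2 fold change divided by the square root of F. A share is a locus's percentage of all counts in its library. Alternatives used DESeq2 1.42.0, limma 3.58.1 on log2(score + 1), other scalings and filters, a replicate block and left-out libraries. The scripts were tested on simulated data, for the edgeR fit with pass conditions only at equal, deep library totals. Those conditions did not cover the depth of the withaferin A libraries. Chi-square per degree of freedom between columns was 1.32 to 1.70 for withaferin A pairs and 45.1 to 140.5 for untreated pairs, and all columns were kept as replicates. Members, lists and likeness rule (5 named loci nearest to each member, and list members of at least 1000 CPM) were chosen with earlier results of these data known.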

Additional observations from a re-analysis of the deposited data

How the results depend on the processing

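The direction of both members held under all 15 alternatives. For miR-222-5p, with 0 counts in every withaferin A library, no alternative could have given another direction. miR-221-5p lost its call with library totals (log2 fold change −2.68, adjusted p = 0.0825), in limma on the authors' score (−7.25, adjusted p = 0.058) and without withaferin A replicate 3, and kept it in the other 12. Without 1 library its value ran from −4.72 to −3.48 in edgeR. miR-222-5p lost its call with library totals (fitted −15.81, edgeR adjusted p = 0.0825) and without withaferin A replicate 3, and its fitted value ran from −16.08 to −15.13 without 1 library. The number of loci called, 53 of 303, was 17 with library totals, 631 of 660 in limma on the authors' score, 25 with a replicate block, 31 with 1 locus per name and 31 in the exact binomial test of summed counts. It ran from 24 (without withaferin A replicate 3) to 68 without 1 library. Nothing in the labels pairs libraries of the same number, and their deviations correlated at 0.0526, −0.0045 and 0.0772. With the replicate block both members stayed called (−3.78 and −15.72, edgeR adjusted p = 0.035 and 0.0221). In the exact binomial test, which ignores spread between libraries, adjusted p was 0.00544 for miR-221-5p and 0.0127 for miR-222-5p. The fit on the 52 loci above the floor was chosen after seeing the data and kept both calls (edgeR adjusted p = 0.00691 and 0.00847). Its filter used the untreated share alone, where both members are high, and it adjusted over fewer loci. These calls are thus no added support. Share differences kept their sign, which for miR-222-5p was fixed by its 0 counts, and no permutation p could pass 0.05 in this design. The untreated ratio of the members was 1.65 to 1.87 without 1 library. Depth limits every value: the 3 withaferin A libraries held 1188 counts in all. The causes of lost calls were not tested.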

Other observations

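On the X chromosome the pair was a large part of all miRNA counts. The table lists 47 named X-linked loci, and in untreated libraries the pair held 39.4% to 52.3% of the counts at these loci. Of the other 45 loci only miR-92a-2-5p lay above the floor, with counts shared with its copy on chromosome 13. It had 1, 0 and 5 counts after withaferin A and 0.999% of untreated counts. The only other of the 45 with a count after withaferin A was miR-320d, with 1. edgeR called 3 of 34 X-linked loci tested lower, the 3 above the floor, which are both members and miR-92a-2-5p. Of all loci tested 16.8% were called lower, and 80.8% of those above the floor. The next most abundant were miR-224-5p (0.164% ± 0.0453 of untreated counts, SD, n = 3, edgeR adjusted p = 0.0958) and miR-98-5p of the let-7 family (0.134% ± 0.0209, edgeR adjusted p = 0.0678). Both had 0 counts after withaferin A and an untreated share below what 3 of 1188 counts would be.

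miRNAs of other cell types were at or near 0. Mesenchymal and stromal miRNAs (3 of 4 hairpins found) had 0 counts after withaferin A and 0.00279% to 0.00393% of untreated counts. Blood miRNAs (5 of 6 found) had 0 counts after withaferin A and 0.00596% to 0.0111% of untreated counts. Muscle and liver miRNAs (2 of 4 found) had 0 counts after withaferin A and 0.00431% to 0.00793% of untreated counts. Among these lists edgeR called 0 of 7 tested loci, 0 at an unadjusted p under 0.05, and DESeq2 called 0. None of these loci lay above the floor, and the untreated share of the most abundant, miR-486-5p, gives 0.0957 counts over the 3 withaferin A libraries, so a fall was not detectable at this depth.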
